A study of Mus musculus with 70 samples.

Results

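The thyroid hormone receptor TRβ occupied 8051 sites in the chromatin of the untreated mouse pituitary, and 872 of them (10.83%, 95% Wilson confidence interval 10.17 to 11.53%) lay in open chromatin that changed with thyroid hormone. These 872 sites are described here. They were chosen by position alone, as the TRβ-HAB peaks that shared at least 1 bp with a T3-regulated ATAC-seq peak, whether or not the cerebral cortex had a peak at the same place. Of the 1776 T3-regulated ATAC peaks, 870 (48.99%, 46.67 to 51.31%) held such a site. The study also mapped TRβ binding in hypothyroid and hyperthyroid mice, which was not used here. An ATAC peak without a site therefore lacked one in untreated mice and may have been bound in the treated ones. The deposited ATAC list gives an adjusted p-value for each peak without the direction of the change, so the sites that opened and those that closed after T3 cannot be counted from it. The study itself reports many more T3-increased than T3-depleted peaks. By its own lists, which include binding in treated mice, most increased peaks and a minority of the depleted ones had TRβ binding.

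The study compared receptor binding, chromatin and RNA of adult male mice (2 to 4 months old by the methods) in different thyroid states. Binding was mapped by chromatin affinity purification (ChAP-seq) in untreated Thrb HAB/HAB;Rosa26 BirA/BirA mice (HAB;BirA), whose tagged TRβ is biotinylated by the BirA ligase, with untreated Rosa26 BirA/BirA mice (BirA) as controls, in 3 libraries per genotype of about 12 pooled pituitaries each. Open chromatin was mapped in 4 hypothyroid and 4 hyperthyroid ATAC libraries of Sun1-GFP nuclei purified from the pituitary of Rosa26 Sun1-GFP mice carrying the Cre driver of the Thrb b2 exon, and therefore only in cells of that lineage. RNA was measured in whole pituitaries, each library from a pool of 3 glands, with 4 libraries per thyroid state from wild-type mice and 5 per state from Thrb-KO mice. Hypothyroid mice drank methimazole (MMI, 0.05%) with potassium perchlorate (1%) for 4 to 5 weeks, and hyperthyroid mice received the same together with T3 (0.5 µg/ml) in the final week, so both arms carried the blockers. All samples are labelled C57BL/6J, whereas the methods describe mixed 129/SvJ, C57BL/6J and FVB/N backgrounds for the tagged mice. By the methods, the Sun1-GFP mice of the ATAC libraries were also of mixed background, C57BL/6J and 129/Sv. The untreated BirA libraries carry the HAB genotype in 1 label field and BirA in their titles, and the titles were followed. The binding, the chromatin and the RNA thus came from different mice, and the binding used here was measured without treatment.

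TRβ is a nuclear receptor for T3, the active thyroid hormone. It binds DNA mostly as a heterodimer with the retinoid X receptor, and its preferred element is a direct repeat of the hexamer AGGTCA with a spacer of 4 bases (DR4). In the pituitary it mediates feedback, in which thyroid hormone lowers thyrotropin, and it also mediates induction of growth hormone.

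The sequences below carry the features described later. In each, capitals mark the hexamers of direct repeats with a 4 base spacer that match AGGTCA at 10 or more of the 12 compared bases, and a repeat on the minus strand reads as TGACCT hexamers on the plus strand. The first group shows the stretch around the repeat, from the plus strand of mm9, for sites beside the tested genes with the largest induction in wild type (Sspo and Bmp7), for the site with the lowest ATAC p-value (Ceacam16), for a 300 bp site with 8 repeats (Dnaja3) and for a site in a suppressed gene (Dpp10).
Sspo (chr6:48442801-48443050, plus strand): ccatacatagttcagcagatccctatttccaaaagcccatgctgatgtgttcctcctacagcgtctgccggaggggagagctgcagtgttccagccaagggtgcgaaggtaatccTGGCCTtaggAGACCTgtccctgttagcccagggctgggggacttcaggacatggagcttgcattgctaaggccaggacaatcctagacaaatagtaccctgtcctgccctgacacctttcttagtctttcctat
Bmp7 (chr2:172767451-172767750, plus strand): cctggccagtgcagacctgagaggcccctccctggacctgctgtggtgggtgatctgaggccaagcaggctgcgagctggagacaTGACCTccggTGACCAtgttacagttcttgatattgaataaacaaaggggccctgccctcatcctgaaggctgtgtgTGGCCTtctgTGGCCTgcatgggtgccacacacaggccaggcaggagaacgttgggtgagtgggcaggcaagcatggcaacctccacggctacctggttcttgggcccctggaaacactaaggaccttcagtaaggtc
Ceacam16 (chr7:20449640-20449939, plus strand): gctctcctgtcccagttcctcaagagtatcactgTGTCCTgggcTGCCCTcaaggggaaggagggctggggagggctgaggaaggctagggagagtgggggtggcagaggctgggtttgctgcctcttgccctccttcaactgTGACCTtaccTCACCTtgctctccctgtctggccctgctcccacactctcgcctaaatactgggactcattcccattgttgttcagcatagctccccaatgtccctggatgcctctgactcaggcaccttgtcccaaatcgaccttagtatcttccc
Dnaja3 (chr16:4702701-4703000, plus strand): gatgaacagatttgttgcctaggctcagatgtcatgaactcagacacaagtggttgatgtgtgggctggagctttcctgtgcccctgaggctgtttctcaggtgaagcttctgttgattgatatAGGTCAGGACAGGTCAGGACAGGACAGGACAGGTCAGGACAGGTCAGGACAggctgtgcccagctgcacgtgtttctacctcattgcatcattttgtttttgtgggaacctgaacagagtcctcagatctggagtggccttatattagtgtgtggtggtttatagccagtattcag
Dpp10 (chr1:125599901-125600200, plus strand): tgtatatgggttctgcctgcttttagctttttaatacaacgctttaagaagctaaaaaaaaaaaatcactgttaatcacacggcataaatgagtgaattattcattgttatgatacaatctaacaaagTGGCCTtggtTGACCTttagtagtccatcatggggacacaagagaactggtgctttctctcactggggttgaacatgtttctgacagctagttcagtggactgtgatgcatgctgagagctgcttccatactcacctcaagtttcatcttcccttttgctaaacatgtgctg

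In the Dnaja3 intron a 10 base unit is repeated in tandem, so that its 8 overlapping repeats share hexamers. A repeat without any mismatch was present at 8 sites (0.92%, 0.47 to 1.80%), and 7 of these are shown with 8 flanking bases, on the strand on which the repeat reads as AGGTCA.
Slco5a1 (chr1:12944441-12944472, plus strand): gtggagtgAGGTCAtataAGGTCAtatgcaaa
Uck2 (chr1:169170710-169170741, minus strand): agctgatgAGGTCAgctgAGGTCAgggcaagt
near Cdh26 (chr2:178530731-178530762, plus strand): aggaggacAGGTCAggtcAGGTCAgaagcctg
near D3Bwg0562e (chr3:117004124-117004155, plus strand): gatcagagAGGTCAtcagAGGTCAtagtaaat
near 4922501L14Rik (chr3:154313135-154313166, minus strand): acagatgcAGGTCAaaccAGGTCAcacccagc
4930598A11Rik (chr4:19963129-19963160, plus strand): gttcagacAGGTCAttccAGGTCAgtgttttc
Dnaja3 (chr16:4702817-4702848, plus strand): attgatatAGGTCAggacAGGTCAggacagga

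None of these 8 sites overlapped a cortex peak. Their HAB;BirA reads ran from 17 to 68, so that an exact match went with neither the highest nor the lowest read numbers among the 872 sites.

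DR4 elements were frequent at these sites. Allowing at most 2 mismatches, 405 sites (46.44%, 43.16 to 49.76%) held a DR4, compared with 1281 of the 7179 other pituitary sites (17.84%, 16.98 to 18.75%) and with 166 of the 906 T3-regulated ATAC peaks without a TRβ-HAB site (18.32%, 15.94 to 20.97%). Regions of the same length 10 kb away from the 872 sites held it in 2.98% of cases (2.04 to 4.33%). No other spacing was comparably frequent. Spacers of 0, 1, 2, 3, 5, 6, 7 and 8 bases were found at 5.62 to 8.94% of the sites. The search covered both strands, and these intervals, like all those of shares, cover counting error only. In fixed windows of 300 bp around the centre, which remove the difference in peak length, the share was 44.27% (41.00 to 47.58%) at these sites, 17.19% at the other pituitary sites and 19.32% at the ATAC peaks without a site.

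**Figure D1:**
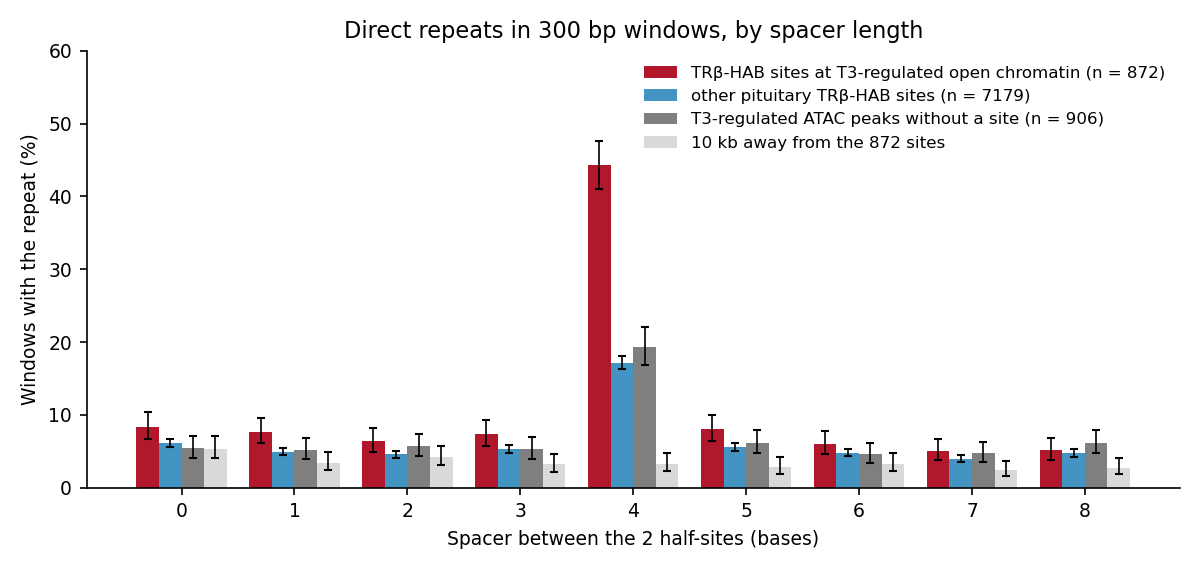
Share of 300 bp windows (vertical axis, %) that held 2 copies of AGGTCA with at most 2 mismatches, by the number of bases between the copies (horizontal axis). Bars show the sites at T3-regulated open chromatin, the other pituitary TRβ-HAB sites, T3-regulated ATAC peaks without a site and windows 10 kb from the 872 sites, with 95% Wilson intervals. The 4 base spacer stood at 44.27% in the first group, and its other spacings at 5.05 to 8.37%.

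A second or further DR4 was present at 60 sites (6.88%, 5.38 to 8.76%) and at 1.38% of the other pituitary sites. The repeats lay near the middle of the peaks. The best DR4 was a median of 43.0 bp from the peak centre, and 361 of the 405 lay inside the ATAC peak itself. Within 50 bp on either side of the centre there were 15.5 and 15.0 repeats per 100 sites per 50 bp, and between 200 and 300 bp from it there were 0.69 to 1.03.

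**Figure D2:**
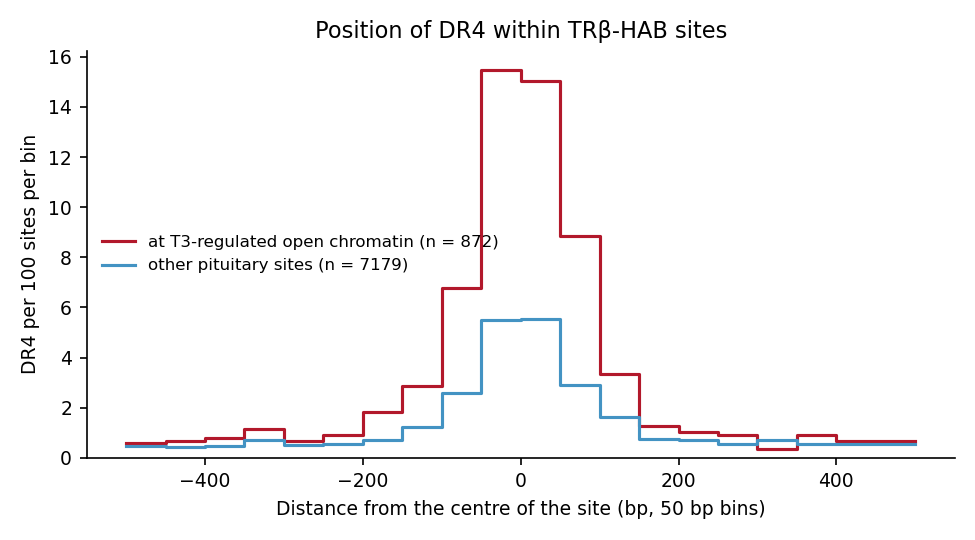
Number of DR4 (at most 2 mismatches, both strands) per 100 sites in each 50 bp bin (vertical axis) by distance from the centre of the site (horizontal axis, bp), for sites at T3-regulated open chromatin and for the other pituitary sites. Both curves peak at the centre, and the first reaches 15.5 per 100 sites.

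The repeats of the sites differed from AGGTCA at particular bases. Positions are counted from 1 at the first base of the repeat. The guanines of the second hexamer at positions 12 and 13 were kept in 97.78% and 93.83% of the 405 best repeats. At the other pituitary sites they were kept in 96.64% and 91.18%. The fourth base of each hexamer varied most, with T in 74.07% at position 4 and in 56.30% at position 14, where A followed with 25.68%. The other pituitary sites had T in 77.21% at position 4 and in 64.56% at position 14, and A at position 14 in 15.61% of their repeats. The background for these bases was 277 repeats in regions 10 kb away from all 8051 pituitary sites, since the regions 10 kb from the 872 sites held only 26. Of the 277, A was at position 14 in 11.55%, and T was at positions 4 and 14 in 74.73% and 67.15%. The fourth base of each hexamer thus varied most in the background and at the other sites as well. The guanines at positions 12 and 13 were kept in 86.64% and 88.09% of the 277. Inside the spacer, which the search left free, the third base (position 9) was T in 50.12% of the repeats, compared with 39.97% at the other sites and 20.94% in the 277 background repeats. The base just before the repeat was T in 8.89%, against 11.09% at the other sites and 17.33% in the background repeats. The first hexamer was exact in 27.90% and the second in 24.94% of the repeats, against 25.92% and 26.15% at the other sites.

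Other short motifs were counted in the same 300 bp windows on both strands without mismatches unless stated. The hexamer AGGTCA alone occurred in 47.13% of the windows (43.84 to 50.45%), in 31.37% of the other pituitary sites and in 18.92% of windows 10 kb away; it overlaps the DR4 count. The AP-1 motif TGANTCA was found in 18.35% of the sites (15.92 to 21.05%), in 12.34% of the other pituitary sites and in 23.51% of the ATAC peaks without a site, against 10.89% in windows 10 kb away. The E-box CAGNTG was found in 77.64% (74.75 to 80.28%), 64.17% and 76.05% of these groups, against 53.10% in windows 10 kb away. The POU-type motif ATGNATA (17.09% against 16.97% 10 kb away) and the homeodomain motif TAATTA (10.44% against 9.98%) were about as frequent as in windows 10 kb away and were found in 12.70% and 6.87% of the other pituitary sites. Also close to its background was the PITX motif TAATCC (12.16%, 10.15 to 14.49%, against 9.75%, 7.95 to 11.90%). Allowing 2 mismatches, the palindromic NFI motif was present in 15.25% of the sites (13.02 to 17.79%), in 13.85% of the other pituitary sites and in 8.94% of windows 10 kb away (7.23 to 11.02%). The inverted repeat of AGGTCA without a spacer was present in 3.21% of the sites (2.23 to 4.60%), 2.33% of the other pituitary sites and 0.57% of windows 10 kb away (0.25 to 1.34%). For the everted repeat with a 6 base spacer the shares were 4.36% (3.19 to 5.92%), 3.02% and 2.29% (1.49 to 3.52%). Regions 10 kb away were lower in G and C, with a median of 44.7% against 49.3% at the sites. The motif shares were not adjusted for this difference.

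The sites held more TRβ-HAB reads than the rest of the list. The median was 32 HAB;BirA reads (quartiles 21 and 51) in the merged libraries, against 17 (13 and 25) at the other pituitary sites, with 3 and 2 reads in the BirA controls. The authors' scaled fold over control had medians of 10.6 and 10.0. The sites were wider, with a median of 350 bp against 300 bp, and in peaks of 400 bp or less the read medians were 26 and 15. The peaks were called on merged libraries, so no value per replicate exists for a single site and the read numbers carry no error between replicates. The share of sites in T3-regulated open chromatin rose with the reads, from 2.58% (1.97 to 3.37%) at 8 to 13 reads to 52.48% (42.82 to 61.94%) above 100 reads.

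It also rose with the match to the DR4, up to 11 of 12 bases. Of the 27 sites with an exact repeat 29.63% (15.85 to 48.48%) were in T3-regulated open chromatin, no more than at the next class. Of the sites whose best repeat matched at 11 of 12 bases 30.34% (25.34 to 35.86%) were in T3-regulated open chromatin, of those at 10 of 12 bases 22.57%, of those at 9 of 12 bases 11.90% and of those with 8 or fewer 3.89%. Reads and repeat each went with the overlap when the other was held in a range. Among sites with 8 to 13 reads, 11.45% of those with a DR4 and 1.45% of those without lay in T3-regulated open chromatin, and above 100 reads the shares were 66.67% and 42.37%. Seen from the other side, the DR4 share at the 872 sites was 41.88 to 52.83% in all 6 ranges of reads and 43.75 to 52.91% in all 5 ranges of width, where the other pituitary sites had 10.24 to 31.25% and 15.54 to 25.86%. Among the 872 sites themselves, those with and without a DR4 had similar read medians of 33 and 32.

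**Figure D3:**
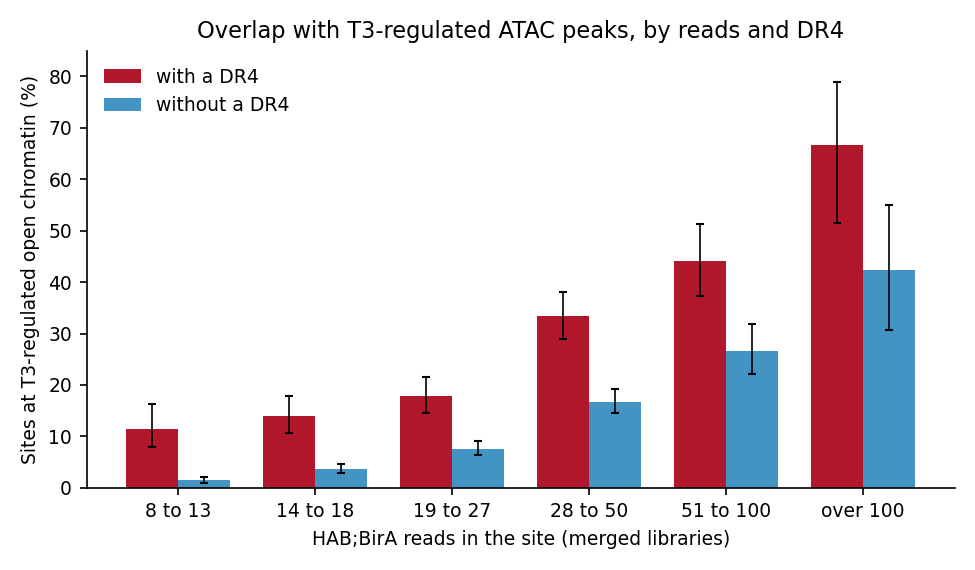
Share of pituitary TRβ-HAB sites that overlapped a T3-regulated ATAC peak (vertical axis, %) by HAB;BirA reads in the site (horizontal axis, merged libraries), for sites with and without a DR4 of at most 2 mismatches. Error bars are 95% Wilson intervals. In every range of reads the sites with a DR4 had the larger share, from 11.45% to 66.67%.

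ATAC peaks with lower p-values held a site more often. Of the 444 ATAC peaks with the lowest adjusted p, 71.17% (66.79 to 75.19%) contained a TRβ-HAB site, and of each next 444 56.98%, 39.41% and 28.38% did. The share of ATAC peaks with a DR4 fell in the same order, from 50.45% to 33.33%, 22.52% and 17.34%. These shares are of whole ATAC peaks and not of fixed windows. Peaks with a site were wider, with a median of 327.5 bp against 268 bp without, and whether width had a part was not tested. The 870 peaks with a site had a median adjusted p of 9.69e-05 and the 906 without had 5.06e-03, both from the authors' list. The authors' methods name edgeR for this comparison.

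Most of the sites were distal to promoters. Only 46 (5.28%, 3.98 to 6.96%) had an annotated transcription start no more than 1 kb away, against 28.17% (27.14 to 29.22%) of the other pituitary sites and 12.69% (10.68 to 15.02%) of the ATAC peaks without a site. The median distance to a start was 22618.5 bp, and 8231 bp at the other pituitary sites. By their centre, 423 sites (48.51%) lay in introns, 39 (4.47%) in exons and 410 (47.02%) between genes. Of the pituitary sites within 1 kb of a start 2.22% were in T3-regulated open chromatin, and of those more than 10 kb from one 15.87% were. The DR4 share was 39.13% (26.39 to 53.54%) at the 46 proximal sites and 46.85% (43.47 to 50.26%) at the 826 distal ones. G and C made up a median of 49.3% of the bases of a site and 51.6% at the other sites.

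The sites were spread over 20 chromosomes. Chromosome 6 had the largest share of its pituitary sites in T3-regulated open chromatin (16.54%) and chromosome 11 the smallest (4.62%). A cortex peak overlapped 84 sites (9.63%, 7.85 to 11.77%), close to the 11.28% (10.57 to 12.04%) of the other pituitary sites. These 84 held more pituitary reads, with a median of 47.5 against 30.5 at the remaining 788, and the same DR4 share (46.43% and 46.45%).

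Of the 872 sites, 790 stood alone, and 38 pairs and 2 triples had gaps under 25 kb. A triple spanned chr1:153790401-153801000 in an intron of 1700025G04Rik with 99, 24 and 58 HAB;BirA reads. The other triple lay within 1800 bp at chr14:51515551-51517350, in A930018M24Rik and upstream of Klhl33, with 68, 20 and 20 reads. The pair with the most reads, chr2:157343101-157345800, held 284 reads in all and lay between genes. Overlaps were rarely marginal. The shared stretch had a median of 250 bp, and 3 sites overlapped by less than 50 bp, with 27 bp at chr3:104858201-104858650 near Cttnbp2nl, 34 bp at chr2:173231851-173232100 and 37 bp at chr6:37551101-37551350, the last 2 between genes. The nearest sites outside the overlap missed an ATAC peak by 2 bp at chr1:153856101-153856500, inside 1700025G04Rik, by 16 bp at chr9:30060401-30060750 and by 20 bp at chr2:174391501-174391950. In all, 14 other sites lay within 200 bp of a T3-regulated peak.

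The site with the most reads stood apart from the rest. At chr11:3030251-3038100 in Sfi1 it held 2852 HAB;BirA reads but also 1890 control reads, a fold of 1.26, over 7850 bp. The next 9 sites by reads had 162 to 218 HAB;BirA reads and 2 to 11 control reads. They were chr8:129259701-129260200 (218 against 6 reads, between genes), chr18:39458401-39459050 in an intron of Arhgap26 (206 against 8), chr16:90539101-90539700 (200 against 7, between genes) and chr3:108308601-108309300 in an intron of 5330417C22Rik (187 against 2). Further ones were chr2:68798601-68799300 in Lass6, a ceramide synthase gene (184 against 10), chr6:140096101-140097000 (179 against 11), chr12:111793851-111794600 in Ppp2r5c, a phosphatase subunit gene (178 against 6), chr7:20449451-20450250 near Ceacam16 (168 against 9) and chr2:157343101-157343850 (162 against 5). Only the chr8 site among these 10 overlapped a cortex peak.

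RNA addressed whether genes near the sites responded to T3 and whether the response differed in mice lacking TRβ. The recovered reads numbered 21453548 to 55273749 per library. The libraries of replicates 1 and 2 stood apart from those of replicates 3 to 5 in every group, so changes within each of these library sets are given beside the pooled ones for the main genes. Of the 13145 genes tested, those above 1 CPM (reads scaled to the total of the library) in all 18 libraries, 12949 could be placed on mm9, and 550 had a site within 20 kb of the gene body. These 550 genes lay near 529 sites, whereas 343 sites (872 less 529) had no tested gene that close. Calls needed 2 things in limma on log2(CPM + 1), namely a 1.5-fold or larger difference and an adjusted p below 0.05. In whole pituitary, fewer cells of a type and less RNA per cell cannot be told apart. The summed level of the thyrotroph markers Tshb, Cga and Trhr had medians of 12260 CPM in hypothyroid and 1483 CPM in hyperthyroid wild type, and of 9508 and 1507 CPM in Thrb-KO. That of the somatotroph markers Gh, Ghrhr and Pou1f1 had medians of 54610 and 108500 CPM in wild type and of 70670 and 89670 CPM in Thrb-KO. All genes of the 12 marker lists were detected. In wild type 4 further lists were higher in every hyperthyroid than in every hypothyroid library. Lactotroph markers had medians of 7621 and 21510 CPM (5399 and 16220 in Thrb-KO), folliculostellate and stem cell markers 38.6 and 49.3 CPM (39.6 and 43.3), blood markers 47.2 and 71.3 CPM (26.5 and 62.4) and brain markers 20.0 and 30.5 CPM (20.3 and 21.5). Brain markers summed to 23.0 to 32.6 CPM in hyperthyroid wild type and to 17.2 to 22.5 CPM in all other libraries, so that they were highest where many of the genes below were high. Whether shifts in cell types had a part in the changes below was not tested.

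Most genes near the sites were not called, and those that were had mainly been induced by T3. In wild type, 146 of the 550 genes (26.55%, 23.03 to 30.39%) were higher in hyperthyroid mice, where 3.87% of all genes tested were. Lower were 23 of the 550 (4.18%, 2.80 to 6.20%), where 5.59% of all genes tested were. The median log2 change of the 550 was 0.19, and that of all placed genes was -0.04. Of the induced genes in the whole table that could be placed, 146 of 504 (28.97%) had a site within 20 kb, and of the suppressed ones 23 of 730 (3.15%). Seen from the sites, 170 of the 872 (19.50%) had an induced gene within 20 kb, 23 (2.64%) had a suppressed gene and 1 had both.

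Other kinds of sites had other neighbours. The 4799 genes with only another TRβ-HAB site within 20 kb were induced in 4.73% (4.16 to 5.37%) and suppressed in 5.19% of cases. The 365 genes near another site of more than 50 HAB;BirA reads, with no site at T3-regulated open chromatin, were induced in 17.53% (13.98 to 21.77%). The 235 genes near a T3-regulated ATAC peak, with no TRβ-HAB site of untreated mice within 20 kb, were induced in 1.28% (0.44 to 3.69%) and suppressed in 11.91% (8.37 to 16.68%). Binding near them in the treated mice was not examined. Genes near none of these were induced in 1.74% and suppressed in 5.84%.

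Genes with a site in or within 5 kb of the gene body were induced most often, and the share was lower at larger distances. It was 28% (23.55 to 32.92%) of the 350 genes with a site in the gene body, 40.43% (27.64 to 54.66%) of the 47 genes whose nearest site was up to 5 kb away, 18.95% (13.53 to 25.90%) from 5 to 20 kb, 8.39% from 20 to 50 kb, 4.75% from 50 to 100 kb and 2.50% from 100 to 500 kb. The share of suppressed genes was at most 5.97% (5.49 to 6.50%), the value beyond 500 kb. With 1 site within 20 kb 24.95% of genes were induced, with 2 sites 36.36% (16 of 44), and with 3 or more 6 of 9.

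**Figure D4:**
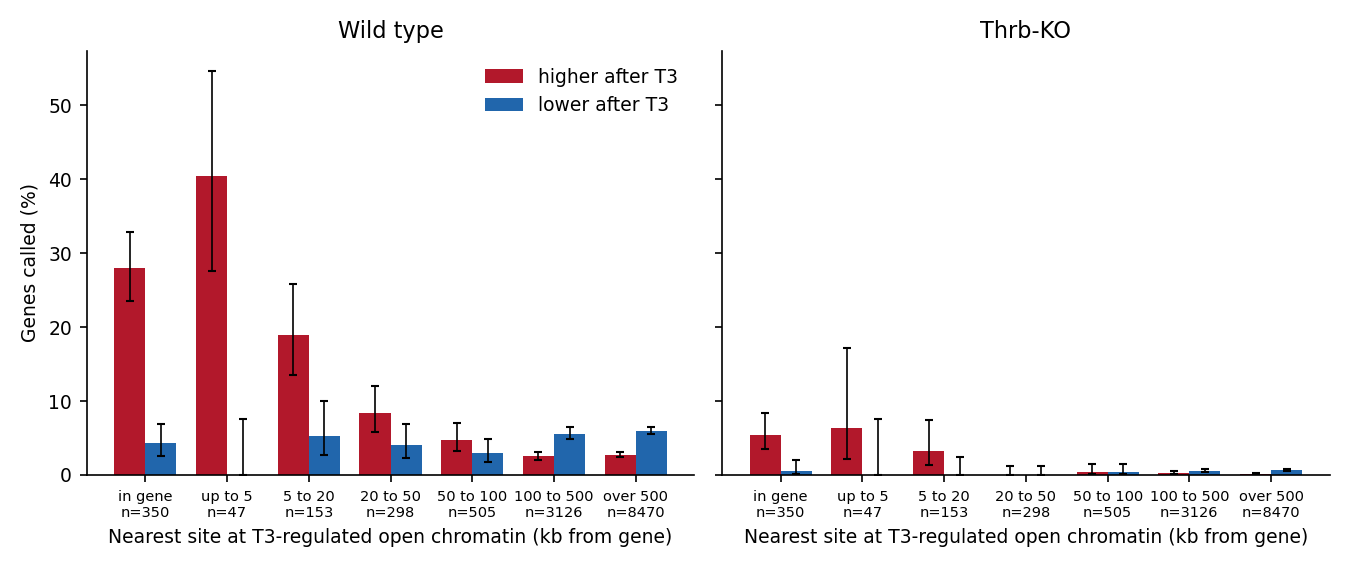
Share of tested genes called by limma (vertical axis, %) as higher or lower after T3, by the distance in kb from the gene body to the nearest site at T3-regulated open chromatin (horizontal axis, with the number of genes n), in wild type (left) and Thrb-KO (right). Error bars are 95% Wilson intervals. In wild type the share of induced genes was 28% with a site in the gene and 2.50% at 100 to 500 kb.

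More reads at the site went with more induction. Genes with a site of over 50 HAB;BirA reads were induced in 41.29% (33.84 to 49.16%) and the others in 20.76% (17.05 to 25.03%). By DR4 the intervals overlapped, with 27.88% (22.86 to 33.52%) of genes near a site with a DR4 induced and 25.27% (20.54 to 30.66%) of those near sites without one. A site within 1 kb of a transcription start had an induced gene near it more often, for 24 of 48 genes (50.0%, 36.4 to 63.6%), than distal sites alone (24.30%). Genes near a site were long, with a median gene body of 86887 bp against 24971 bp for all placed genes, and their median CPM was 32.6 against 21.3. Within each of 4 equal groups by gene length 19.72 to 39.81% of genes near a site were induced, against 2.62 to 3.29% of the rest, and within each of 4 by mean CPM 20.00 to 36.21% against 1.94 to 3.61%.

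Fewer genes near the sites were called in Thrb-KO. In Thrb-KO, 27 of the 550 genes were induced (4.91%, where 0.411% of all genes tested were) and 2 were suppressed (0.36%, where 0.601% of all were), 1 of them Cntnap2. With the replicate number as a block 5 genes were suppressed. The difference between the genotypes was tested as an interaction, which called 73 genes with a more positive change in wild type (13.27%, 10.69 to 16.36%, where 1.78% of all genes tested were) and 11 with a more negative one (2.00%, where 2.48% of all were). Of the 146 genes induced in wild type, 72 (49.32%) passed the interaction and 26 (17.81%) were also induced in Thrb-KO. Of all 504 placed genes induced in wild type, these included, 214 (42.46%) passed the interaction and 45 (8.93%) were induced in Thrb-KO, with medians of 0.89 in wild type and 0.21 in Thrb-KO. The median log2 change of the 146 was 0.97 (quartiles 0.77 and 1.40) in wild type, from which they were chosen, and 0.27 (0.10 and 0.50) in Thrb-KO. Of the 146 genes, 13 rose in both genotypes without an interaction call, among them Klf9, Klf13, Cish, Trib1 and Slco5a1. The Thrb-KO label could not be checked by the level of its target. Thrb RNA was not lower in Thrb-KO, with a log2 difference of 0.08 in hypothyroid mice (limma adjusted p = 0.818), and the reads cover the whole transcript and not only the deleted part.

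The induced genes are taken in turn by what they encode, an order that carries no test. Only sites at T3-regulated open chromatin are named for them. Other TRβ-HAB sites also lay within 20 kb of some, such as 7 for Cacna1d, 5 for Foxo6, 4 for Klf9 and 3 for Bcl3, whereas Sspo, Bmp7 and Col4a3 had 0. Sspo encodes SCO-spondin, a large secreted glycoprotein, and had a site in an intron with 27 HAB;BirA reads. Its CPM was 3.62, 3.38, 2.73 and 2.14 in the hypothyroid and 105, 109, 72.6 and 129 in the hyperthyroid wild-type libraries, and 2.11 to 3.61 in all 10 Thrb-KO libraries. Only the hyperthyroid wild-type libraries were high, with no overlap. The log2 fold change was 4.71 (SE 0.16, limma adjusted p = 8.42e-13). Within the library sets it was 4.58 and 4.83, and the interaction was 4.69 (SE 0.22, limma adjusted p = 4.42e-10). Bmp7, a bone morphogenetic protein, had a site 1629 bp upstream of the gene with 16 reads and a repeat matching at 11 of 12 bases. Its CPM was 4.51, 4.02, 3.33 and 2.76 in hypothyroid and 54.7, 55.8, 26 and 42.6 in hyperthyroid wild type, and 3.36 to 4.89 in Thrb-KO. Again hyperthyroid wild type stood alone. This gave a log2 fold change of 3.25 in wild type (SE 0.18, limma adjusted p = 5.22e-10, with 3.42 and 3.09 in the separate sets) and an interaction of 3.20 (SE 0.25, limma adjusted p = 1.97e-07). Its relative Bmp6, with a site in an intron, rose from 20.8 ± 3.07 to 51.8 ± 11.9 CPM in wild type (log2 fold change 1.26, SE 0.15, limma adjusted p = 4.18e-06) and was at 21.3 ± 0.812 and 20.5 ± 2.91 CPM in Thrb-KO.

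Col4a3 and Col4a4, which encode chains of basement membrane collagen IV and are transcribed in opposite directions from neighbouring starts, shared a site at chr1:82586801-82587150 with 61 reads. Col4a3 CPM was 12.2, 15.5, 4.68 and 5.73 in hypothyroid and 114, 113, 35 and 62.3 in hyperthyroid wild type. The groups did not overlap, although replicates 1 and 2 were above replicates 3 and 4 in both. In wild type the log2 fold change came to 2.95 (SE 0.36, limma adjusted p = 6.47e-06), with 2.96 in replicates 1 and 2 and 2.95 in replicates 3 and 4, and it exceeded that of Thrb-KO in size by an interaction of 2.83 (limma adjusted p = 0.00109). Col4a4 rose by a log2 fold change of 2.18 (SE 0.35, limma adjusted p = 1.39e-04), with an interaction of 2.02 (limma adjusted p = 0.0132). Olfml2b, an olfactomedin-like matrix gene, rose in both genotypes, by 2.18 (limma adjusted p = 3.22e-10) and 1.18 (limma adjusted p = 1.72e-06).

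Hunk, a kinase of the AMPK-related family, had a site 4003 bp downstream of the gene with 67 reads. Its CPM was 15.6, 15.5, 10.9 and 10.8 in hypothyroid and 104, 104, 66.7 and 89.4 in hyperthyroid wild type, and 14, 16.6, 12.5, 14.2 and 11.3 in hypothyroid and 36.8, 40.1, 36, 38.5 and 35.3 in hyperthyroid Thrb-KO. Hunk rose in both genotypes without overlap, and less in Thrb-KO. The log2 fold change was 2.69 (SE 0.15, limma adjusted p = 4.09e-10). Within the library sets it was 2.67 and 2.72, and the interaction was 1.31 (SE 0.20, limma adjusted p = 4.20e-04). Ttbk1, a tau tubulin kinase with a site in an intron, rose by 2.65 in wild type (limma adjusted p = 3.35e-08), and its change of 0.65 in Thrb-KO did not pass (limma adjusted p = 0.11). Alk, a receptor tyrosine kinase, rose from 7.23 ± 2.49 to 35.6 ± 8.43 CPM (limma adjusted p = 1.38e-06). Akt2, a kinase of insulin signalling with a site of 100 reads in an exon, rose from 21.9 ± 0.61 to 45.5 ± 7.79 CPM (limma adjusted p = 1.05e-06), and its log2 change of 0.49 in Thrb-KO was under 1.5-fold (limma adjusted p = 0.0055).

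Foxo6, a forkhead factor of the FoxO family that is restrained by insulin signalling, carried a pair of sites in an intron under a single ATAC peak, with 66 and 101 reads. Its CPM was 7.73, 7.99, 5.62 and 4.02 in hypothyroid and 40.6, 33, 26.6 and 37.3 in hyperthyroid wild type, and 8.71, 11, 10.3, 10.3 and 8.86 in hypothyroid and 25.3, 20.6, 21.4, 19.9 and 25.4 in hyperthyroid Thrb-KO. Both genotypes separated without overlap. This gave a log2 fold change of 2.29 in wild type (SE 0.16, limma adjusted p = 8.95e-09, with 2.09 and 2.50 in the separate sets) and an interaction of 1.17 (SE 0.22, limma adjusted p = 0.00272). Bcl3, an IκB-family coregulator known as a T3 target in liver, was at 2.40, 2.27, 2.11 and 2.21 CPM in hypothyroid and 12.8, 12, 11.4 and 12.1 CPM in hyperthyroid wild type (log2 fold change 2.01, SE 0.15, limma adjusted p = 1.12e-08). Its change in Thrb-KO, 0.41, did not pass (limma adjusted p = 0.169). Klf9, a zinc finger factor induced by T3 in many tissues, had a site 6916 bp upstream that also had a cortex peak, and rose by 0.88 in wild type and 0.67 in Thrb-KO (limma adjusted p = 9.95e-05 and 0.00338). The difference of 0.21 between the genotypes did not pass (SE 0.18, limma adjusted p = 0.769).

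**Figure D5:**
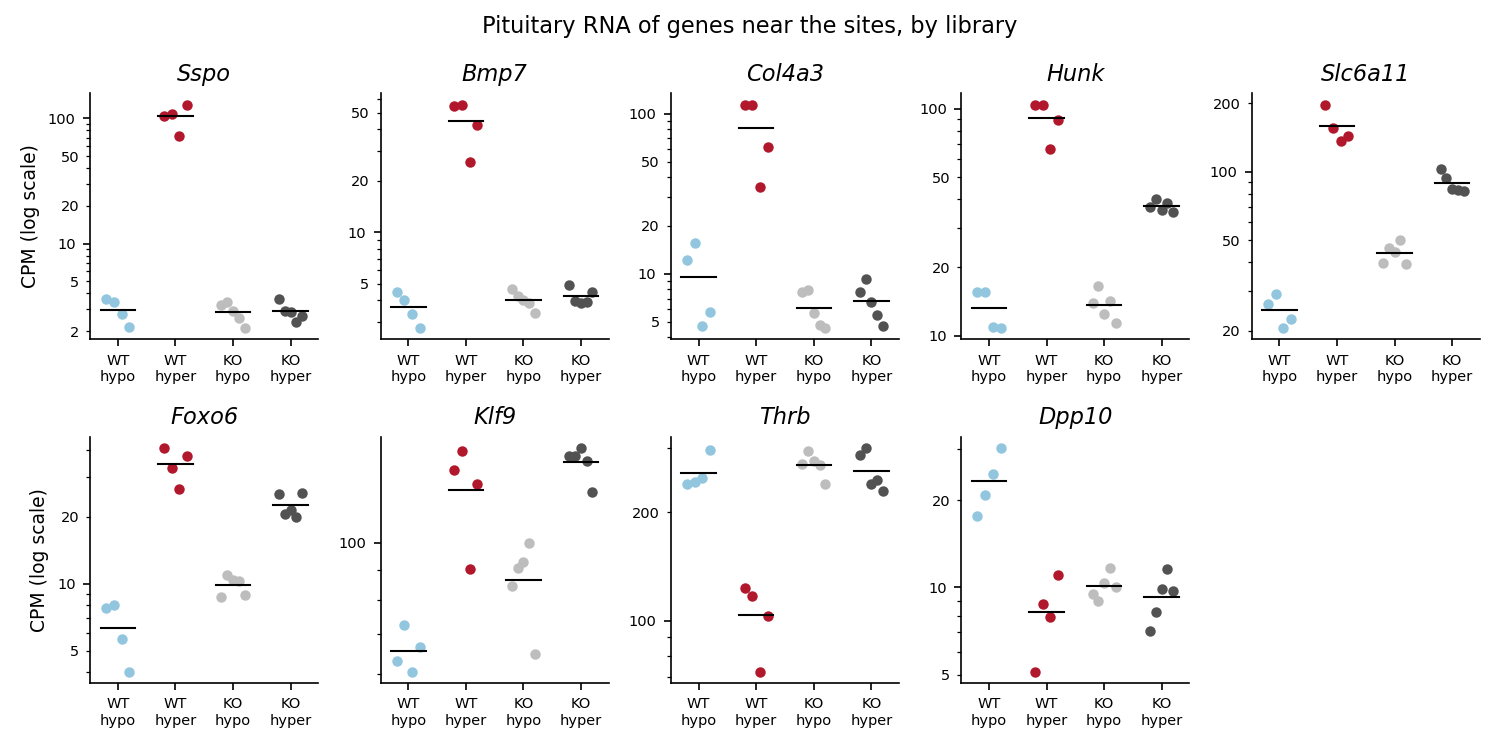
CPM of 9 genes near the sites in each RNA library (points; vertical axes, log scale) in hypothyroid and hyperthyroid wild type (WT, n = 4 each) and Thrb-KO (n = 5 each), with lines at the means. Sspo and Bmp7 were high in hyperthyroid wild type alone, Hunk and Foxo6 rose in both genotypes, and Thrb and Dpp10 fell in wild type.

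Among transport and secretion genes, Slc6a11, a GABA transporter, had a site in an intron and another 5535 bp upstream. Its CPM was 26.3, 29.1, 20.5 and 22.4 in hypothyroid and 197, 156, 136 and 143 in hyperthyroid wild type. In wild type the log2 fold change came to 2.64 (SE 0.13, limma adjusted p = 5.45e-11), with 2.62 in replicates 1 and 2 and 2.65 in replicates 3 and 4, and it exceeded that of Thrb-KO in size by an interaction of 1.63 (limma adjusted p = 6.86e-06). In Thrb-KO it rose by 1.01 (limma adjusted p = 1.88e-05), from a hypothyroid level of 44 ± 4.61 CPM. Syt12, a synaptotagmin, had a site 15404 bp upstream with 90 reads against 0 in the control, and rose by 2.49 (limma adjusted p = 6.51e-10) and by 1.02 in Thrb-KO (limma adjusted p = 7.68e-05). Rab27b, a small GTPase of granule release, rose by 1.13 in wild type (limma adjusted p = 2.27e-06) and was at 0.01 in Thrb-KO (limma adjusted p = 1). Cacna1d, a subunit of L-type calcium channels whose site held 130 reads, rose from 124 ± 24.4 to 248 ± 74.2 CPM (limma adjusted p = 8.52e-04), with overlapping groups. The potassium channel gene Kcnk1 rose by 0.62 (limma adjusted p = 7.77e-06), just over 1.5-fold.

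The remaining most induced genes were Gbp3, a guanylate-binding protein, Myh7, Klhl33 and Trim67. Gbp3, whose site spanned its start and which has close relatives that can share reads, rose by 3.02 in wild type and 1.38 in Thrb-KO (limma adjusted p = 5.05e-08 and 0.0011). Myh7, the slow myosin heavy chain, had a site 1925 bp downstream. Its CPM was 5.56, 5.19, 5.21 and 4.57 in hypothyroid and 46.4, 52.1, 20.9 and 36.9 in hyperthyroid wild type, and 4.70 to 8.92 in Thrb-KO, so that only hyperthyroid wild type was high; its neighbour Myh6 is similar in sequence, and reads may be divided between them. The log2 fold change was 2.63 (SE 0.20, limma adjusted p = 1.78e-08). Within the library sets it was 2.98 and 2.29, and the interaction was 2.99 (SE 0.27, limma adjusted p = 1.14e-06). Klhl33, beside the triple of sites on chromosome 14, rose by 2.37 (limma adjusted p = 2.45e-09) and by 0.89 in Thrb-KO (limma adjusted p = 7.39e-04). Trim67, an E3 ligase gene with a site in an intron, rose by 2.34 and 0.80 (limma adjusted p = 2.86e-07 and 0.0401).

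Ceacam16, which encodes a secreted adhesion protein of the inner ear, lay 2803 bp from the site with the lowest ATAC p-value (7.59e-89). It was under 1 CPM in some libraries and so was not among the genes tested. Its CPM was 0.371, 0.379, 0.253 and 0.218 in hypothyroid and 16.9, 16.7, 14.7 and 16.4 in hyperthyroid wild type, and 0.308, 0.491, 0.507, 0.493 and 0.384 in hypothyroid and 3.94, 4.98, 3.22, 3.03 and 5.73 in hyperthyroid Thrb-KO. Both genotypes separated without overlap. Fitted without the limit on low values, its log2 changes were 3.72 and 1.82, and they differed by 1.89 (limma adjusted p = 3.91e-06).

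The suppressed genes with the largest falls and separated groups that are described here had 1 site at T3-regulated open chromatin each. Other TRβ-HAB sites also lay within 20 kb of some, 3 for Gabrb1, 2 for Thrb and 1 each for Fkbp7 and Susd4. Dpp10, Glt25d2 and Ankrd34a had 0. Thrb itself had a site in an intron with 57 reads. Its CPM was 239, 242, 249 and 297 in hypothyroid and 124, 117, 72.4 and 103 in hyperthyroid wild type, and 272, 295, 278, 271 and 239 in hypothyroid and 288, 301, 239, 245 and 228 in hyperthyroid Thrb-KO. Only hyperthyroid wild type was low. This gave a log2 fold change of -1.32 in wild type (SE 0.14, limma adjusted p = 1.27e-06, with -0.99 and -1.64 in the separate sets) and an interaction of -1.26 (SE 0.19, limma adjusted p = 3.22e-04). Because Thrb is the gene disrupted in Thrb-KO, its reads there come from the altered gene. Its interaction therefore cannot be read like that of the other suppressed genes. Dpp10, a protein that associates with potassium channels, had a site in an intron with a repeat matching at 11 of 12 bases, and was at 17.6, 20.8, 24.6 and 30.2 CPM in hypothyroid and 5.13, 8.79, 7.91 and 11.1 CPM in hyperthyroid wild type. In both Thrb-KO groups it lay between 7.09 and 11.7 CPM, near the hyperthyroid wild-type level. In wild type the log2 fold change came to -1.41 (SE 0.19, limma adjusted p = 1.71e-05), with -1.38 in replicates 1 and 2 and -1.45 in replicates 3 and 4, and it exceeded that of Thrb-KO in size by an interaction of -1.29 (limma adjusted p = 0.00351).

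Fkbp7, a peptidyl-prolyl isomerase of the endoplasmic reticulum whose site lay 15209 bp upstream in an intron of Plekha3, showed the same arrangement, at 24 ± 4.02 and 7.39 ± 1.13 CPM in wild type and 7.99 ± 1.07 and 5.96 ± 1.09 CPM in Thrb-KO (interaction -1.20, limma adjusted p = 6.31e-04). Glt25d2, Susd4, Ankrd34a and Gabrb1, a GABA receptor subunit, fell in wild type by log2 changes from -1.22 to -0.98 (limma adjusted p = 5.58e-07 to 4.24e-04), and each passed the interaction (limma adjusted p = 1.66e-03 to 0.0278). Pdk4, a kinase that inhibits pyruvate dehydrogenase, was lower after T3 with overlapping groups (-0.88, limma adjusted p = 0.0155). In all, 9 of the 23 suppressed genes (39.13%) passed the interaction in the same direction, close to the 301 of 730 (41.23%) among all placed genes suppressed in wild type.

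Only sites with a DR4 of at most 2 mismatches can be shown, and those of Gbp3, Trim67, Akt2, Bmp6, Susd4 and Ankrd34a held none. Repeats at most of the other genes are given for comparison, induced genes first and suppressed genes from Fkbp7 on, with 8 flanking bases on the strand of the repeat.
Sspo (chr6:48442908-48442939, minus strand): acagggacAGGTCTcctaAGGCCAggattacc
Bmp7 (chr2:172767528-172767559, minus strand): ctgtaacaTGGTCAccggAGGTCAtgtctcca
Col4a3 (chr1:82586959-82586990, minus strand): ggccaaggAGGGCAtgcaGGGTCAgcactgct
Hunk (chr16:90503931-90503962, plus strand): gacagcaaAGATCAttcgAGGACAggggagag
Ttbk1 (chr17:46585286-46585317, minus strand): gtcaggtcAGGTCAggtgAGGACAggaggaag
Slc6a11 (chr6:114153759-114153790, minus strand): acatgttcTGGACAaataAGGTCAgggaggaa
Myh7 (chr14:55587339-55587370, plus strand): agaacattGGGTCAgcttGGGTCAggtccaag
Syt12 (chr19:4493014-4493045, plus strand): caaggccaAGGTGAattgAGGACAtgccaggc
Klhl33 (chr14:51515696-51515727, minus strand): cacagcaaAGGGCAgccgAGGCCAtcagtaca
Foxo6 (chr4:119950456-119950487, plus strand): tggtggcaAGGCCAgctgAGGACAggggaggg
Olfml2b (chr1:172588305-172588336, minus strand): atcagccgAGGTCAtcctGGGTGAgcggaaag
Alk (chr17:72682539-72682570, plus strand): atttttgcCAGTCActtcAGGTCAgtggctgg
Whrn (chr4:63140402-63140433, plus strand): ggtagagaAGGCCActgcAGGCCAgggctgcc
Bcl3 (chr7:20395047-20395078, minus strand): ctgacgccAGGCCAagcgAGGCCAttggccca
Cacna1d (chr14:31017968-31017999, minus strand): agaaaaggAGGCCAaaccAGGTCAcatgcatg
Fkbp7 (chr2:76526358-76526389, minus strand): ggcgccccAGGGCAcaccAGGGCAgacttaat
Dpp10 (chr1:125600021-125600052, minus strand): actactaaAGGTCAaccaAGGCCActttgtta
Glt25d2 (chr1:154345127-154345158, minus strand): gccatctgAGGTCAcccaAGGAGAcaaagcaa
Gabrb1 (chr5:72308748-72308779, minus strand): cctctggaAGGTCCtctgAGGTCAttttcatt

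Genes with many sites differed widely in their changes. 2010111I01Rik held 4 sites and rose by 0.75 (limma adjusted p = 4.23e-05). Of the genes with 3 sites, Klhl33 rose by 2.37 and was among the 15 largest increases. Whrn, a scaffold protein of hair cells and photoreceptors, rose by 1.60 (limma adjusted p = 1.63e-07) with 0.11 in Thrb-KO, and 1700025G04Rik rose by 0.67 (limma adjusted p = 0.00854). Itpr1, the inositol trisphosphate receptor, stood at -0.08 with 3 sites in its gene body (SE 0.18, limma adjusted p = 0.847).

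Gene lists drawn up for the pituitary are read against all 12949 placed genes, of which 550 (4.25%) had a site within 20 kb. None of the 7 hormone genes, of the 17 placed lineage transcription factors or of the 24 genes placed from a list of other nuclear receptors had one, and with so few genes these zeros are near that share. The nuclear receptor list left out the mineralocorticoid receptor Nr3c2, which was on a receptor list and had a site. Tshb and Cga, which encode the subunits of thyrotropin, changed by log2 -4.95 and -2.55 in wild type (limma adjusted p = 9.4e-07 and 2.64e-09), and their nearest such site was 718364 and 914028 bp away. Gh and Prl, the growth hormone and prolactin genes, rose by 1.03 and 1.70 (limma adjusted p = 1.7e-03 and 4.91e-04) with none within 1 Mb, although another TRβ-HAB site lay in Gh and 889 bp from Prl. The study itself shows T3-inducible chromatin opening at TRβ-bound sites of Gh. The absence here therefore holds only for the deposited ATAC list and the binding in untreated mice. Of 21 placed T3 target genes of other tissues 6 had a site, of which Bcl3, Klf9 and Myh7 rose, Pdk4 and Thrb were called lower, and Fasn did not pass. Of 30 insulin and IGF signalling genes 5 had one, of which Akt2, Foxo6 and Trib3, a pseudokinase that binds AKT, rose, and Igf1r and Irs2 did not pass, at 0.30 and 0.39. Of 28 placed BMP, activin and TGF-β genes 2 had a site, and both, Bmp6 and Bmp7, rose. Of 27 placed ion channel genes 7 had a site, of which Cacna1d and Kcnk1 rose, 1 fell and 4 did not pass. Of 25 secretory granule genes 2 had one, of which Rab27b rose, and Cpe, at -0.27, changed by less than 1.5-fold. Among the receptor lists, Ncoa1 at 0.52 and Sstr3 at -0.58 changed by less than 1.5-fold (limma adjusted p = 0.0194 and 4.03e-04), and Nr3c2 did not pass.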

How the data were processed

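Per the methods, the authors aligned ChAP-seq reads to mm9, pooled the 3 libraries per genotype, and found TRβ-HAB peaks with SICER (version 1.1 in the submitters' processing notes) on HAB;BirA against BirA. The deposited pituitary and cortex lists give, for each peak, read counts of both merged genotypes, a p-value with its false discovery rate, and the fold (ratio) of the scaled counts. The authors called ATAC peaks with MACS2 and compared the treatments with edgeR, while a legend of the study names SICER. The deposited ATAC list holds positions and an adjusted p-value alone, which chose the regions and was tested no further. RNA-seq reads were mapped with BBMap per the methods and deposited by the authors as CPM per transcript for 18 libraries. Every deposited CPM value was a whole multiple of the value of 1 read (100% within a tolerance of 0.05 reads). Of the per-sample columns, 0 were left unused.

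Sites were intersected by at least 1 bp, placed by their centre against the mm9 annotation GENCODE M1 and searched for motifs on both strands of the mm9 genome, with regions 10 kb away as background. Genes were linked to a site within 20 kb of the gene body. Of 29082 transcripts, the one with the highest mean CPM stood for each gene, and 13145 genes with over 1 CPM in all 18 libraries were tested on log2(CPM + 1) with limma 3.58.1 (R 4.3.3), with Benjamini-Hochberg adjustment over all of them. All fold changes are on that scale, which understates the change of low genes. The limma fit stood in for the test of the study on these normalised values. The interaction is the T3 change in wild type minus that in Thrb-KO. Shares carry 95% Wilson intervals, which hold counting error alone. The fit was tested on simulated data with 200 changed genes. Alternatives used edgeR 4.0.16 and DESeq2 1.42.0 on the recovered reads, other pseudocounts, filters, distances and scalings, and left out each library in turn.

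Named sites were the 10 with the most reads, those with an exact DR4, the densest runs and those at the edge of the overlap. Named genes were the 15 largest increases and 8 largest decreases called in wild type without overlap of the groups, the 5 with the most sites, genes the study names, and called genes of the lists. A few genes and sequences that these rules choose are not reported here. The members and lists were chosen with earlier results of these data known. Libraries with the same replicate number deviated together from their group means (25 pairs, correlations 0.130 to 0.815), so the numbers were also fitted as a block, the pairing coming from these data and not from a stated batch. Libraries of the same set with different numbers did so as well (0.271 to 0.755). Nothing in the labels says whether replicates were separate cohorts, so p-values measure the spread between these pools.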

Additional observations from a re-analysis of the deposited data

Results flagged for a closer look

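In 27 of the 35 named genes the T3 response differed between the genotypes by the interaction in limma. Of all genes tested, the interaction called 1.78% as more positive and 2.48% as more negative in wild type. Many of the 35 were chosen for large wild-type changes, which enter the interaction, so a high count was built in. The log2 response in wild type exceeded that in Thrb-KO by 4.69 for Sspo, 3.20 for Bmp7, 2.99 for Myh7, 2.83 for Col4a3, 2.02 for Col4a4 and 2.00 for Ttbk1. The difference was 1.64 for Gbp3, 1.63 for Slc6a11, 1.60 for Bcl3, 1.54 for Trim67, 1.48 for Klhl33, 1.48 for Whrn and 1.47 for Syt12. It was 1.33 for Bmp6, 1.31 for Hunk, 1.28 for Alk, 1.17 for Foxo6, 1.12 for Rab27b, 1.00 for Olfml2b and 0.59 for 2010111I01Rik. Among genes lower after T3 the difference was -1.29 for Dpp10, -1.26 for Thrb (the gene disrupted in Thrb-KO), -1.20 for Fkbp7, -0.98 for Ankrd34a, -0.91 for Gabrb1, -0.80 for Susd4 and -0.76 for Glt25d2.

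Of 140 groups of libraries examined for the named genes, 2 held a library far from the others, where chance flags about 1 in 20 groups. Olfml2b was at 3.08 CPM in hypothyroid wild-type replicate 1, and Kcnk1 was at 60.4 CPM in hyperthyroid wild-type replicate 4.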

How the results depend on the processing

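Of 200 recomputed counts and shares, 185 stayed within 1.5 times or within their error. With stricter peak lists 487 sites remained in the overlap. The share of sites with a DR4 was 11.01% at 1 mismatch, against 3.08% of the other pituitary sites. At 3 mismatches it was 83.83%, against 51.47% of the other pituitary sites and 27.29% of regions 10 kb away. Within 5 kb of a transcription start lay 15.94% of the sites, against 42.23% of the other pituitary sites. The number of suppressed genes near the sites in wild type was 35 within replicates 3 to 5, 42 without a fold limit, 15 with sites within 5 kb and 35 with sites within 50 kb. In Thrb-KO it was 5 with the replicate block, 5 with the library set as a term, 4 within replicates 1 and 2, 6 within replicates 3 to 5 and 5 without a fold limit. At an adjusted p under 0.01 the interaction called 47 genes as more positive and 6 as more negative in wild type. For the gene counts, the share of all genes called under each setting is not given here. The shifts are therefore not read as particular to genes near the sites, and their cause was not tested.

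Leaving out 1 library at a time gave 134 to 170 induced and 20 to 26 suppressed genes in wild type, 19 to 27 and 2 to 2 in Thrb-KO, and 62 to 106 and 10 to 14 in the interaction. The replicate block gave 147 and 28 genes in wild type, 31 induced genes in Thrb-KO, and 99 and 13 in the interaction, and changed no other call of a named gene in wild type. On recovered reads, edgeR called 168 induced and 21 suppressed genes in wild type and DESeq2 called 174 and 20. All these counts are of genes near the sites. The share of all genes called under each setting is not given, so the counts do not show whether a shift was particular to these genes. The median change of all genes in wild type moved from -0.04 to 0.03 in edgeR. Of 980 recomputed values of named genes 974 kept direction and call and 0 reversed. The values that no longer passed were 1700025G04Rik within replicates 3 to 5 (0.50) and without hyperthyroid replicate 1 (0.54), Pdk4 without hypothyroid replicate 3 (-0.65), Trib3 within replicates 3 to 5 (0.57), and Kcnk1 within replicates 1 and 2 (0.56) and without hyperthyroid replicate 4 (0.57).

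Binding and ATAC values were deposited over merged libraries or as a p-value alone, so their spread between replicates is unknown here. The deposited list also gives no direction of the ATAC change for a single peak. A site near a gene is a matter of distance, and nothing in the values used here links the site to the gene. In reporter assays in pituitary GH3 cells, the study found T3-inducible enhancer activity for TRβ-bound fragments of Ceacam16 and Thrb. That activity was lost when the DR4 motifs were mutated. Whether these fragments are the sites described here was not checked.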

Other observations

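Genes near sites with a cortex peak were compared with the rest. Of the 64 tested genes near a site that was also in the cortex list 32.81% (22.57 to 45.00%) were induced in wild type, and of the 486 others 25.72% (22.04 to 29.79%). In Thrb-KO 8 of the 64 genes (12.50%, 6.47 to 22.77%) and 19 of the 486 (3.91%, 2.52 to 6.02%) were induced. The intervals overlap in wild type and do not in Thrb-KO. Of all genes tested 0.411% were induced in Thrb-KO. Sites with a cortex peak also held more pituitary reads. Of genes near a site of over 50 HAB;BirA reads 9.03% were induced in Thrb-KO, and of those near sites with fewer 3.29%. The comparison was made after the values were known, and neither the difference nor a part of the read numbers in it was tested.

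ATAC peaks without a TRβ-HAB site overlapped a cortex TRβ-HAB peak in 16 of 906 cases (1.77%, 1.09 to 2.85%), against 84 of the 872 sites.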
